A study of Homo sapiens with 6 samples.

Results

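The histone modifiers and chromatin remodellers described here are 51 named genes, found, all 51, among the 23619 symbols of each library. Their list was chosen with earlier results of these data known. Older names such as MLL are kept as the files give them. By role they comprised 12 histone methyltransferase genes (with their core partners), 9 demethylases, 4 acetyltransferases, 6 deacetylases, 15 remodeller subunits and 5 readers or cofactors. Gene expression was measured by RNA sequencing in 6 libraries of HG3, a lymphoblastoid B cell line from chronic lymphocytic leukaemia. Control libraries came from 3 pools of cells numbered 17, 18 and 28, and fludarabine-resistant libraries from 3 pools with the same numbers. Fludarabine is a purine nucleoside analogue used against this leukaemia, and the pools belong to a transposon mutagenesis study. Sample titles call the resistant libraries treated samples and the others control samples. The labels do not say whether control pools also carried transposon insertions, how many clones a pool held or whether drug was present at harvest. A response to treatment and a lasting trait of resistant cells therefore cannot be told apart. The comparison asks which transcripts distinguish the resistant pools from the controls.

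Histone-modifying enzymes add or remove methyl and acetyl groups on histone tails. Methylation of lysine 4 of histone H3 by the MLL and SETD1 enzymes and acetylation by EP300 and CREBBP mark active promoters and enhancers, whereas the Polycomb complex PRC2, built on EZH2, SUZ12 and EED, methylates lysine 27 and is tied to silencing. Remodellers such as SWI/SNF (the SMARC and ARID subunits), the CHD proteins and NuRD (CHD4 with HDAC1, HDAC2 and a GATAD2 subunit) use ATP to move nucleosomes. Genes of this machinery, CREBBP, EP300, EZH2 and ARID1A among them, are frequent targets of mutation in B cell lymphoma.

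All values are FPKM, fragment counts scaled by transcript length and by library depth, as deposited by the authors. Between 10936 and 11331 genes per library reached 1 FPKM, and depth relative to control 17 ran up to 1.301 in resistant 28. The absolute depth behind a value is not known. A set of 6 B cell markers, PAX5 and CD79A among them, summed to 2049 to 2522 FPKM in control and 1914 to 2846 in resistant libraries. Most of each sum was CD74 (1169 in resistant 18 to 1876 in resistant 28). PAX5 alone of the set separated the groups. It fell from 15.1 to 12.7 in pool 17, 17.6 to 13.3 in pool 18 and 16.3 to 13.3 in pool 28. CD79A was lowest in resistant 18 (212), whereas resistant 17 (394) and resistant 28 (384) exceeded every control (322 to 377). The 6 T cell markers stayed under 1 FPKM in every library, summing to at most 0.624, the 4 erythroid markers summed to at most 0.115 and the 6 stromal or epithelial markers to at most 1.36. Summed myeloid markers were 2.38 to 3.36 FPKM across controls, compared with 2.41 to 8.22 across resistant libraries. The highest myeloid sum was that of resistant 18, where ITGAM had 6.05 FPKM, against 1.17 and 1.63 in resistant 17 and 28. Summed natural killer cell markers reached 1.40 FPKM across controls and 1.70 across resistant libraries. Resistant 18 stood apart on the first principal component of all tested genes (58.8, against -33.5 to 6.81 in the other 5 libraries). Values without it are given for some of the members whose difference changed when it was left out.

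A subset of the members had lower FPKM in every resistant library than in any control, led by ADNP, GATAD2B, KDM3A, MLL and EP300, while PRC2, deacetylase and most CHD genes did not. In bulk RNA, fewer cells of a kind and less RNA per cell cannot be told apart. Genes with at least 1 FPKM in at least 3 libraries were tested, 11307 in all and 47 of the 51 members. On the scale of log2(FPKM + 1), limma with Benjamini-Hochberg adjustment over all 11307 genes found 0 members past an adjusted p of 0.05, where 0.0354% of all genes passed. At an unadjusted p under 0.05 (limma), 18 of the 47 tested members were lower in resistant libraries and 0 were higher, beside 7.14% of all genes lower and 5.99% higher. Without pool 28 the first number was 9, where 3% of all genes were lower at that threshold. In 20 members all 3 resistant libraries lay below all 3 controls, a pattern seen in 11.1% of all genes, and in 2, SMARCC1 and SMARCB1, all 3 lay above, as did 10.1% of all genes. Within pools, 23 members were lower in all 3 and 6 higher in all 3, against 18.7% and 18.9% of all genes. The median log2 difference, resistant minus control, was -0.25 over the 47 tested members and 0.01 over all tested genes. By pool the members' medians were -0.25 in pool 17, -0.22 in pool 18 and -0.40 in pool 28.

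These counts describe the members that reached the filter and are not a test of the list. Because the list was chosen with earlier results known, its counts beside those of all genes are a description only. SETD1A and KDM6B were under 1 FPKM in all 3 resistant libraries and were tested only because their controls were above it. The 4 untested members were SETD1B, KDM5B, HDAC7 and ARID5B, all under 1 FPKM in every library. When limma weighted each library by its fit (resistant 18 at 0.162, the rest at 1.03 to 1.93), 8 members passed, beside 2.66% of all genes, all 8 lower: MLL, MLL3, MLL5, SETD2, KDM3A, EP300, GATAD2B and ADNP. Without resistant 18, KDM3A was the 1 member that passed, beside 0.115% of all genes (limma adjusted p = 0.0430, ranging from 0.0158 to 0.923 over its 21 alternatives).

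**Figure D1:**
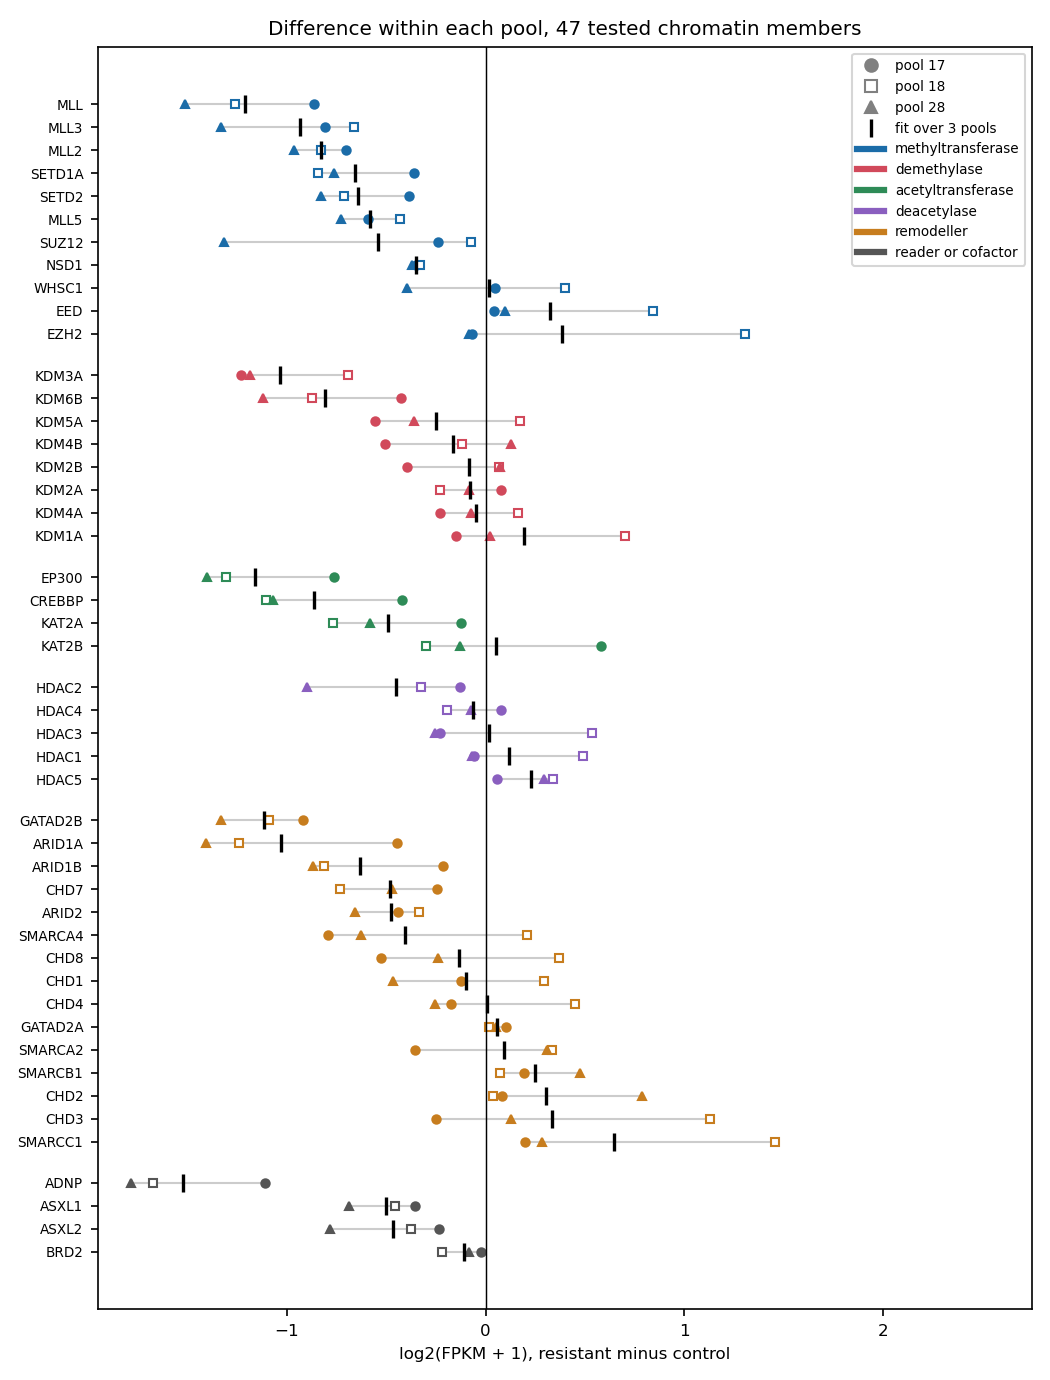
Resistant minus control log2(FPKM + 1) within pool 17 (circles), pool 18 (open squares) and pool 28 (triangles) for the 47 tested members, grouped by class, with the fitted difference over the 3 pools as a bar. ADNP, MLL, EP300 and GATAD2B lie left of 0 in every pool, and the open squares of EZH2, SMARCC1 and CHD3 lie more than 1 to the right of it.

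Most members have long transcripts, and long transcripts as a whole had slightly lower values in the resistant libraries of pools 17 and 28, but not of pool 18. Of the 46 tested members whose length could be matched, 35 were among the 2595 longest of the 10380 matched genes (5099 bases or more), where the median log2 difference of all genes was -0.10, compared with 0.06 among the 2595 shortest. For pools 17, 18 and 28 it was -0.14, 0.04 and -0.24 among the longest and 0.05, -0.05 and 0.17 among the shortest. Among the 1214 genes at least as long as the median member (7010 bases), 24.1% had all resistant libraries below all controls, against 13 of the 23 members of that length, and 17.4% were lower at an unadjusted p under 0.05, against 12 of 23. The median difference there was -0.15 for all genes (-0.19, -0.0032 and -0.33 by pool) and -0.48 for the members. With trends of GC content and length removed from each library, the members' median moved to -0.045 and 14 of 46 were lower at an unadjusted p under 0.05 (30.4%, against 7.6% of all genes). With the length trend alone removed the median was -0.092, and with the GC trend alone -0.20. The part of transcript length in the single-gene differences was not tested further.

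The 15 tested members with a mean below 5 FPKM over the 6 libraries had a median log2 difference of -0.81, and in 12 of them all resistant libraries lay below all controls. That mean includes the resistant values: 5 of the 15, MLL, MLL3, MLL5, EP300 and ARID1B, had a control mean of at least 5 FPKM. The split therefore does not separate level from difference and is given as a description. Among all 3143 tested genes at that level the median was -0.03, and in 13.6% all resistant libraries lay below all controls. Of these, 492 were at least as long as the median member, with a median of -0.19 and 29.9% below. The 10 members of that level and length had a median of -0.90, with 8 below. The 32 members at 5 FPKM or more had a median of -0.081, with 8 below, where 10.2% of the 8164 genes at that level were below. FPKM is scaled by length, so these levels can be compared between genes.

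**Figure D2:**
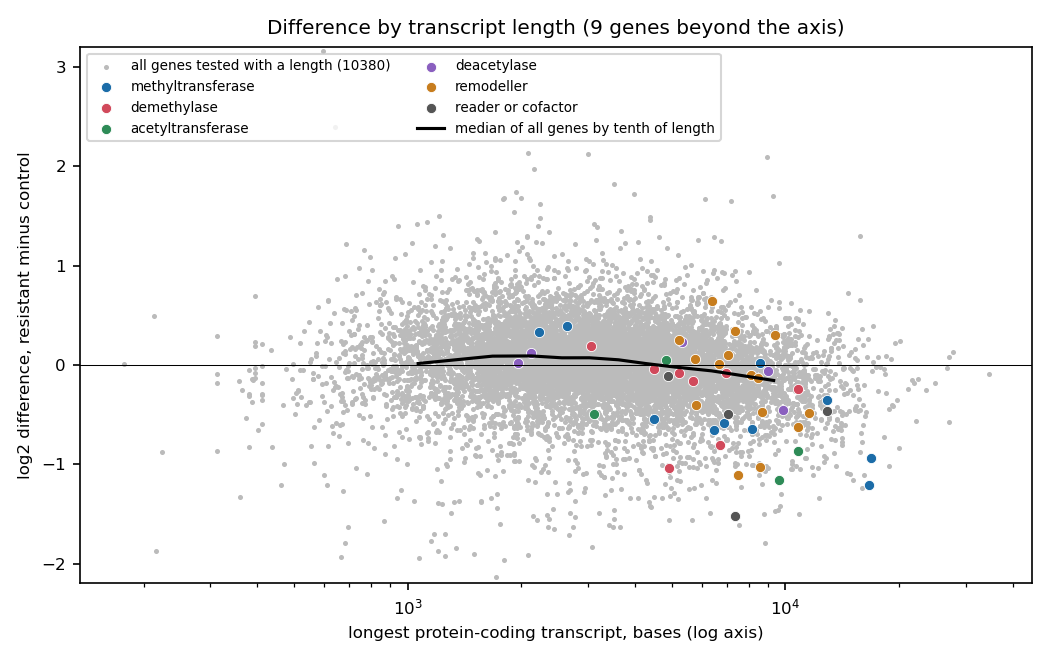
Log2 difference, resistant minus control, against the length of the longest protein-coding transcript (log axis) for all tested genes with a length (grey), with the members coloured by class and the median of all genes within 10 equal-sized length bins as a line. The line turns below 0 for long transcripts, and most members with differences under -0.5 lie at 5099 bases or more.

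For 45 members a RefSeq promoter window was matched by symbol (GRCh38.p14, 250 bases upstream of the gene's start). The 3 windows shown belong to the members of smallest p that were lower without overlap and whose window holds no annotated exon. The chromosome of CHD7 was left out of this choice, so CHD7 was not considered. They are printed 5′ to 3′ on the gene's strand, with each GC box (GGGCGG on either strand) in capitals.

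ARID1A, chr1:26695765-26696014 (+ strand): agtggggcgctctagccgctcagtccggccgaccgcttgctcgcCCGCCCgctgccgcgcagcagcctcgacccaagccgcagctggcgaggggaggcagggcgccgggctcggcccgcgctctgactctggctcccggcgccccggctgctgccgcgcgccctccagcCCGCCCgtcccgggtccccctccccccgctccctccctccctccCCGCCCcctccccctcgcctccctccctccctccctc

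SETD2, chr3:47164114-47164363 (- strand): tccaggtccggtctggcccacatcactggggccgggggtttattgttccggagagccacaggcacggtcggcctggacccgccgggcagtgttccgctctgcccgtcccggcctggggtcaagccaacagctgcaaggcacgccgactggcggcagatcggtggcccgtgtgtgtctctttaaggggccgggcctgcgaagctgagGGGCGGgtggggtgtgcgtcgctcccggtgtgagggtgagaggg

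KDM6B, chr17:7833967-7834216 (+ strand): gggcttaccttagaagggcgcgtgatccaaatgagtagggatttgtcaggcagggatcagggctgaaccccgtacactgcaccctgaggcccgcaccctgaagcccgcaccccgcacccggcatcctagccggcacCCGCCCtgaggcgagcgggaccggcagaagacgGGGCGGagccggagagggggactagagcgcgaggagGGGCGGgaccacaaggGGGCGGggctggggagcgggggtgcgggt

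ARID1A had 3 GC boxes, SETD2 had 1 and KDM6B had 4, and none of the 3 windows held the TATA box motif (TATAAA, searched on both strands). The GC box, to which SP family factors bind, was present on either strand in 29 of the 45 member windows (64.4%), in 13 of the 18 windows of members lower without overlap, in 67.3% of the windows of tested genes and in 42.3% of all 27305 windows. The core motif of ETS factors (CGGAAG) was in 24.4% of member windows and 31.0% of those of tested genes, and the CCAAT motif was in 33.3% and 36.3%. In the 18 windows of members lower without overlap these were 22.2% and 16.7%, the latter being 3 windows. The median GC content of the member windows was 68.8%, against 58.0% for all windows. It was not measured for the windows of tested genes, so this comparison shows no trait particular to the members.

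Among the methyltransferases, all MLL and SETD1 genes, a family known for methylation of lysine 4 of histone H3, had lower values in every resistant library than in any control. MLL (KMT2A), which maintains active transcription of HOX and other genes, had 4.72, 5.85 and 8.41 FPKM in controls 17, 18 and 28, compared with 2.14, 1.86 and 2.29 in their resistant counterparts. The groups did not overlap, and the mean was 3.01-fold lower under resistance (log2 difference -1.21, SE 0.21, limma adjusted p = 0.158). MLL3 (KMT2C), an enzyme of enhancers, had 5.43, 5.23 and 7.88 FPKM across controls, compared with 2.68, 2.94 and 2.53 across resistant libraries (log2 difference -0.93, SE 0.19, limma adjusted p = 0.179). Controls of both genes were highest in pool 28, while their resistant libraries lay close together. MLL3 has near-identical partial copies elsewhere in the genome, so its FPKM is uncertain. MLL2 had 2.35, 1.65 and 3.02 FPKM against 1.06, 0.494 and 1.06 (log2 difference -0.83, limma adjusted p = 0.220). MLL2 and MLL4 have each been used for both KMT2B and KMT2D, so which gene MLL2 names here is not settled by the symbol.

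SETD1A, a catalytic subunit of the complexes responsible for bulk lysine 4 methylation, had 1.49, 1.54 and 1.87 FPKM across controls, compared with 0.941, 0.414 and 0.688 across resistant libraries (log2 difference -0.66, limma adjusted p = 0.228). SETD1A passed the filter only through its controls. Its paralogue SETD1B was not tested, at 0.454 to 0.637 FPKM in controls and 0.218 to 0.344 in resistant libraries, again with no overlap. MLL5 (KMT2E), a chromatin-bound relative with little catalytic activity of its own, had 4.93 to 5.70 FPKM against 2.94 to 3.88 (-0.58, limma adjusted p = 0.222). SETD2, which places trimethylation on lysine 36 behind RNA polymerase II, had 9.05, 11.5 and 12.3 FPKM across controls, compared with 6.70, 6.66 and 6.47 across resistant libraries (log2 difference -0.64, SE 0.16, limma adjusted p = 0.1999). Its resistant values were nearly equal. NSD1, a lysine 36 dimethyltransferase, had 7.49 to 9.84 FPKM against 5.75 to 7.39, with differences of -0.35, -0.33 and -0.37 in pools 17, 18 and 28 (limma adjusted p = 0.426). WHSC1 (NSD2), its paralogue, did not share this pattern: its log2 difference was 0.02, with 23.1 to 24.4 FPKM across controls, compared with 24.5, 30.8 and 18.3 across resistant libraries, and -0.16 without resistant 18.

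The 3 PRC2 genes overlapped between groups, and resistant 18 held the highest EZH2 and EED values. EZH2, the catalytic subunit, had 13.4, 13.2 and 10.5 FPKM across controls, compared with 12.7, 34.2 and 9.82 across resistant libraries (log2 difference 0.39, SE 0.42, limma adjusted p = 0.735). EED, which reads the mark the complex makes, had 16.1, 19.9 and 14.4 FPKM against 16.6, 36.5 and 15.5 (0.33, limma adjusted p = 0.712). SUZ12, the scaffold subunit, had 7.44, 13.5 and 17.7 FPKM against 6.14, 12.8 and 6.54 (-0.54, limma adjusted p = 0.563), and reads could be shared with its near-identical copy SUZ12P1. Only in pool 18 did EZH2 differ by more than 0.1 between groups, by 1.31, compared with -0.07 and -0.08 in pools 17 and 28. Without resistant 18 the differences were -0.12 for EZH2, -0.053 for EED and -0.85 for SUZ12. In pool 18 EED differed by 0.84 and SUZ12 by -0.07. Listed genes of S phase and mitosis also had their highest medians in pool 18. Over 15 S phase genes the median differences were -0.17, 0.85 and -0.40 for pools 17, 18 and 28. Over 15 mitosis genes they were -0.08, 0.93 and -0.51. TYMS (-1.83), CDT1 (-0.57) and MKI67 (-0.90) were negative in pool 18, where all other listed genes of S phase and mitosis were positive. The part of these genes in the PRC2 values was not tested, and 1 library per pool and group allows no test within a pool.

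**Figure D3:**
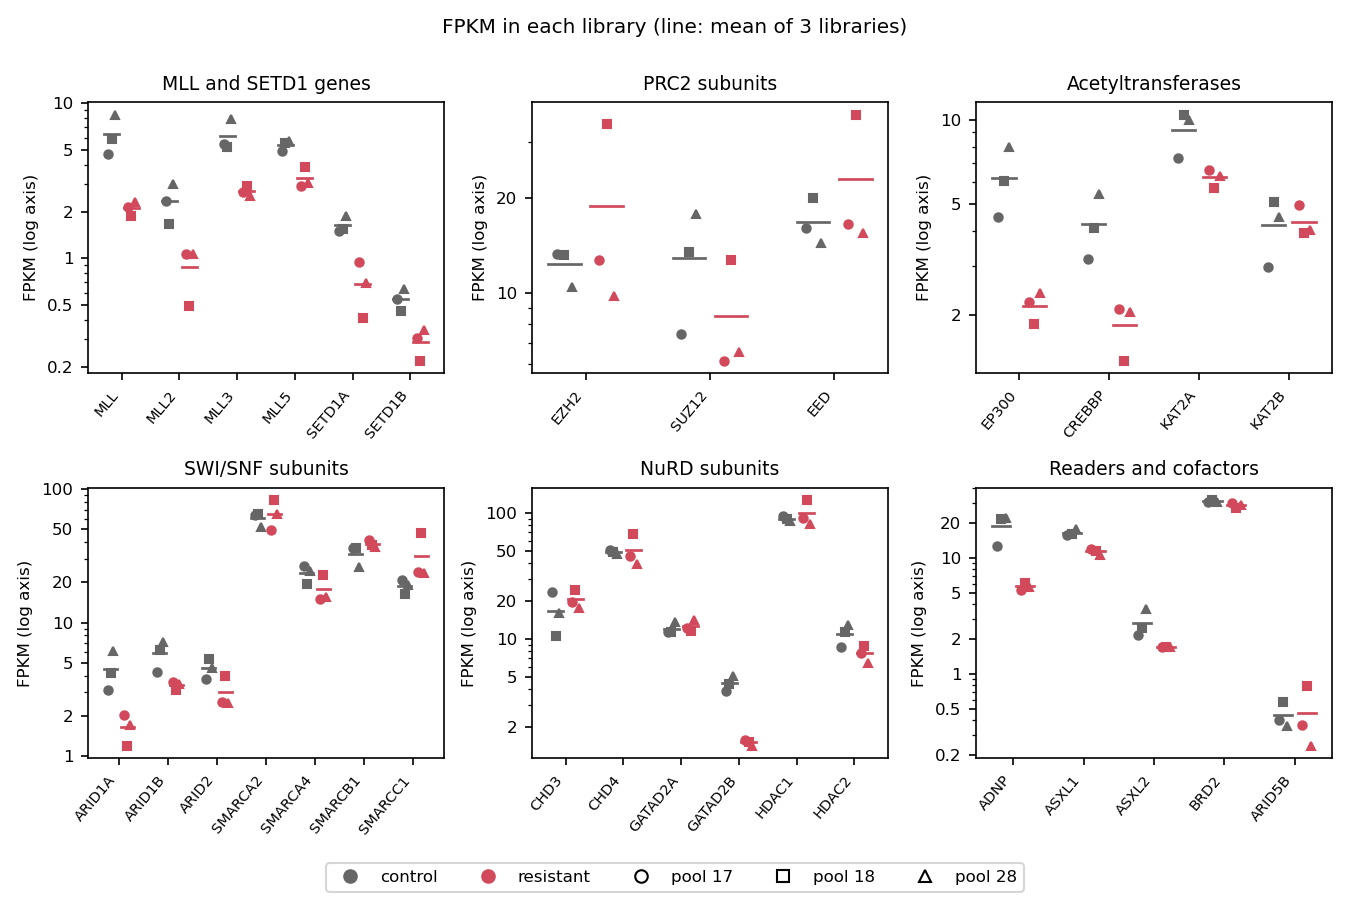
FPKM (log axis) of members in 6 groups by family or complex, in the 3 control (grey) and 3 resistant (red) libraries, with the pool as the marker shape and a line at each mean. The MLL, SETD1, EP300, CREBBP, GATAD2B and ADNP groups separate, with resistant libraries lower. EZH2, EED and SMARCC1 are set apart in resistant 18, and SMARCC1 also has all resistant libraries above all controls.

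Of the 8 tested demethylases, KDM3A and KDM6B were lower without overlap, as were 11.1% of all tested genes, and the other 6 differed in sign between pools. KDM6B passed the filter only through its controls. KDM3A, which removes methyl groups from lysine 9 of histone H3, had 14.3, 13.2 and 13.6 FPKM across controls, compared with 5.53, 7.82 and 5.41 across resistant libraries. Control values lay close together, and the mean was 2.19-fold lower in resistant libraries (log2 difference -1.04, SE 0.18, limma adjusted p = 0.158). KDM6B, which removes the Polycomb mark from lysine 27, had 1.62, 1.15 and 2.99 FPKM against 0.952, 0.176 and 0.838 (-0.81, SE 0.30, limma adjusted p = 0.325). KDM1A, the lysine 4 demethylase also known as LSD1, had the highest level of the class and the only positive difference, with 34.3, 31.2 and 27.9 FPKM across controls, compared with 30.9, 51.5 and 28.3 across resistant libraries (0.19, limma adjusted p = 0.781). Resistant 18 alone lay above the controls, and without it the difference was -0.068. KDM2A, KDM2B, KDM4A, KDM4B and KDM5A, which act on lysines 4, 9 and 36, lay between -0.25 and -0.05 on the log2 scale. Without resistant 18 they ran from -0.39 (KDM5A) to -0.02 (KDM2B). KDM5B, at 0.0926 to 0.530 FPKM, was not tested.

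The related acetyltransferases EP300 and CREBBP, coactivators that acetylate enhancer histones, were both lower, as was KAT2A. EP300 had 4.48, 6.05 and 7.95 FPKM across controls, compared with 2.23, 1.85 and 2.39 across resistant libraries, 2.86-fold lower on average (log2 difference -1.16, SE 0.21, limma adjusted p = 0.158). CREBBP had 3.16, 4.09 and 5.40 FPKM against 2.11, 1.37 and 2.05 (-0.86, SE 0.21, limma adjusted p = 0.197). For both genes the smallest difference was in pool 17, at -0.76 for EP300 and -0.42 for CREBBP, where the control was also lowest. KAT2A (GCN5), the acetyltransferase of the SAGA complex, had 7.30, 10.4 and 9.94 FPKM against 6.61, 5.70 and 6.30 (-0.49, limma adjusted p = 0.311). KAT2B (PCAF), its close paralogue, overlapped between groups with 2.96, 5.08 and 4.50 FPKM across controls, compared with 4.94, 3.94 and 4.03 across resistant libraries (0.05, limma adjusted p = 0.941).

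The deacetylases, which remove acetyl groups, overlapped between groups in all 5 tested genes, and their median log2 difference was 0.02. HDAC2, a class I enzyme, had 8.61, 11.3 and 12.9 FPKM across controls, compared with 7.79, 8.84 and 6.44 across resistant libraries, lower in each pool (-0.45, SE 0.20, limma adjusted p = 0.390). Its partner HDAC1 had 95.3, 89.5 and 85.7 FPKM against 91.4, 126 and 81.7 (0.12, limma adjusted p = 0.841), the highest FPKM of any member. Resistant 18 again lay above the rest, and without it the difference was -0.06. HDAC5, a class IIa enzyme, had 25.3, 23.3 and 20.05 FPKM across controls, compared with 26.4, 29.7 and 24.8 across resistant libraries, higher in each pool (0.23, SE 0.16, limma adjusted p = 0.578). HDAC3, another class I enzyme, had a log2 difference of 0.02 (-0.22 without resistant 18) and HDAC4 of -0.06 (0.14 without it). HDAC7 was not tested, at 0.033 to 0.206 FPKM.

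In SWI/SNF, the ARID1 subunits, which take part in target choice, were lower in every resistant library, and other subunits differed in both directions. ARID1A had 3.12, 4.16 and 6.14 FPKM across controls, compared with 2.03, 1.18 and 1.69 across resistant libraries, 2.74-fold lower on average (log2 difference -1.03, SE 0.24, limma adjusted p = 0.197). ARID1B, its alternative in the same complex, had 4.27, 6.28 and 7.18 FPKM against 3.55, 3.15 and 3.48 (-0.63, SE 0.20, limma adjusted p = 0.266). Neither overlapped between groups. ARID2, the subunit of the PBAF form, had 3.77, 5.29 and 4.53 FPKM against 2.52, 3.99 and 2.50 (-0.48, limma adjusted p = 0.384), and resistant 18 overlapped with control 17. SMARCC1, a core scaffold, went the other way with 20.8, 16.4 and 19.1 FPKM across controls, compared with 24.01, 46.7 and 23.4 across resistant libraries (0.65, SE 0.28, limma adjusted p = 0.388). Resistant 18 was the highest, with a difference of 1.46 in its pool, and the differences in pools 17 and 28 were 0.20 and 0.28. SMARCB1, another core subunit, had 36.3, 36.4 and 26.1 FPKM against 41.6, 38.4 and 36.6 (0.25, limma adjusted p = 0.601). The ATPase genes SMARCA4 (-0.40) and SMARCA2 (0.10) overlapped between groups, and both differed in sign between pools. Without resistant 18, SMARCC1 was at 0.33, SMARCA2 at -0.085 and SMARCA4 at -0.59. The other SWI/SNF genes measured also divided. SMARCC2 (-0.38), SMARCD1 (-0.47), PBRM1 (-0.29) and DPF2 (-0.42) had all resistant libraries below all controls. SMARCE1 (0.47), BRD7 (0.30), BRD9 (0.36) and ACTL6A (0.38) had all of them above, and SMARCD2 (0.36) overlapped.

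Of the NuRD genes, GATAD2B was lower in every resistant library while its paralogue GATAD2A was not. GATAD2B, which links the methyl-binding and the remodelling parts of the complex, had 3.89, 4.38 and 5.06 FPKM across controls, compared with 1.59, 1.53 and 1.41 across resistant libraries. The mean was 2.95-fold lower, and the log2 difference of -1.11 (SE 0.16) gave the smallest p of any member (limma adjusted p = 0.135). GATAD2A had 11.3, 11.4 and 13.6 FPKM against 12.2, 11.5 and 14.1 (0.06, limma adjusted p = 0.915). The difference between the paralogues was not tested. CHD4, the ATPase of the complex, had 51.2, 49.3 and 47.3 FPKM against 45.2, 67.7 and 39.5 (0.01, limma adjusted p = 0.995), and CHD3 had a log2 difference of 0.34 with 1.13 in pool 18. Without resistant 18, CHD4 was at -0.22 and CHD3 at 0.21. CHD7, a remodeller of enhancers, was lower without overlap, at 5.54, 7.74 and 6.46 FPKM against 4.52, 4.27 and 4.38 (-0.48, SE 0.16, limma adjusted p = 0.294). CHD1 (-0.10), CHD8 (-0.13) and CHD2 (0.30) overlapped between groups. Without resistant 18 these were -0.26, -0.33 and 0.45.

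All 4 tested readers and cofactors were lower in resistant libraries without overlap. ADNP, a zinc finger protein that works with CHD4 at its target sites, had 12.7, 21.5 and 22.0 FPKM across controls, compared with 5.32, 6.06 and 5.67 across resistant libraries, 3.29-fold lower on average. Its log2 difference of -1.52 (SE 0.23, limma adjusted p = 0.158) was the lowest of the 47 tested members. ASXL1 and ASXL2 are partners of the BAP1 enzyme that removes ubiquitin from histone H2A. ASXL1 had 15.7, 16.2 and 17.6 FPKM against 12.0, 11.6 and 10.6 (-0.50, SE 0.14, limma adjusted p = 0.236), and ASXL2 had 2.17, 2.50 and 3.65 against 1.69, 1.70 and 1.70 (-0.47, SE 0.19, limma adjusted p = 0.360). BRD2, a bromodomain reader of acetylated histones, differed little although its groups separated, with 30.3, 31.5 and 30.5 FPKM against 29.8, 26.9 and 28.8 (-0.11, limma adjusted p = 0.787). ARID5B, a DNA-binding partner of the demethylase PHF2, had 0.398, 0.575 and 0.359 FPKM across controls, compared with 0.363, 0.784 and 0.239 across resistant libraries and was not tested.

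**Figure D4:**
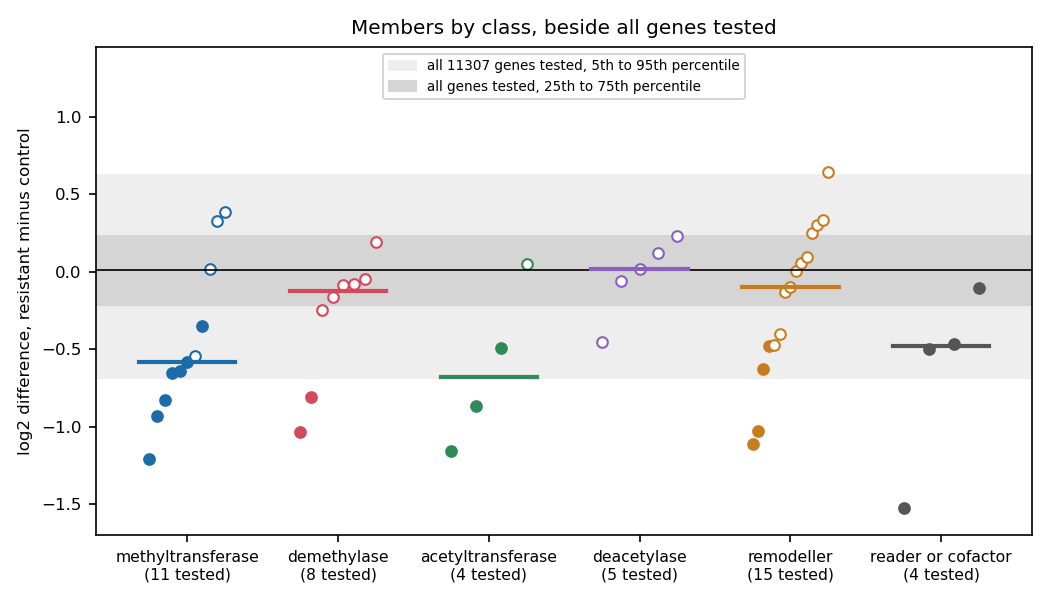
Log2 difference, resistant minus control, of each tested member by class, filled where all 3 resistant libraries lay below all 3 controls, with the class median as a line and the middle ranges of all 11307 tested genes as grey bands. Methyltransferase, acetyltransferase and reader or cofactor medians lie at -0.58, -0.68 and -0.48, and the deacetylase median at 0.02.

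By class, the median log2 difference was -0.58 for the 11 tested methyltransferases, -0.12 for the 8 demethylases, -0.68 for the 4 acetyltransferases, 0.02 for the 5 deacetylases, -0.10 for the 15 remodellers and -0.48 for the 4 readers or cofactors. Resistant libraries lay below all controls in 7, 2, 3, 0, 4 and 4 of these, where 11.1% of all tested genes did. Differences between classes were not tested. In 14 members resistant 18 had the highest value of the 6 libraries. In pool 18, 20 members were positive, compared with 10 in pool 17 and 11 in pool 28. Median differences of all tested genes were -0.03, 0.05 and -0.0065 in pools 17, 18 and 28. Without resistant 18 the members' median was -0.33, with 39 of 47 negative, and that of all tested genes was -0.03. These counts were not made for all genes, so they describe the members without showing a trait particular to them.

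A second list held 103 other genes of the same machinery, of which 100 were tested. None passed an adjusted p of 0.05 in limma, 20 were lower and 2 higher at an unadjusted p under 0.05 (7.14% and 5.99% of all genes), and in 28 all resistant libraries lay below all controls (11.1% of all genes). Their median log2 difference was -0.13. TRRAP, a scaffold of the NuA4 and SAGA complexes, had 7.49 ± 3.04 FPKM in control and 3.15 ± 0.293 in resistant pools (mean ± SD, n = 3), a log2 difference of -0.98 (limma adjusted p = 0.209). SRCAP, the ATPase that loads histone H2A.Z, had 3.40 ± 0.943 against 1.14 ± 0.205 FPKM (-1.03, limma adjusted p = 0.177). HCFC1, a cofactor of the lysine 4 methyltransferases, had 4.22 ± 0.452 against 2.10 ± 0.476 FPKM (-0.76, limma adjusted p = 0.196).

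Other lower genes were HDAC10 (-0.57), MLL4 (-0.55), the methyltransferase gene ASH1L (-0.54), the Polycomb gene PCGF1 (-0.60) and the demethylases PHF8 (-0.44) and JMJD1C (-0.40), each without overlap between groups. By class, all 9 other demethylase genes had negative differences and in 5 the groups did not overlap, where 48.4% of all genes were negative and 11.1% below. The 23 other methyltransferases had a median of 0.02 with 12 positive, and the 12 other acetyltransferases a median of -0.13 with 2 below. Medians were -0.15 for 14 deacetylases, -0.16 for 29 remodellers and -0.05 for 13 readers or cofactors. MBD2, the methyl-binding subunit that GATAD2 proteins contact in NuRD, had the highest difference of the 100, with 29.9, 26.1 and 25.4 FPKM across controls, compared with 61.6, 60.2 and 57.1 across resistant libraries (1.11, SE 0.15, limma adjusted p = 0.135). The acetyltransferase gene KAT8 was at 0.46 (limma adjusted p = 0.384).

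For 17 of 50 annotated members, MLL, MLL3, MLL5, ARID1A, ARID1B, EP300 and ADNP among them, exons overlap those of a gene on the opposite strand. Whether the authors' libraries kept strand is not given in the sources used here, so reads of such pairs may not have been told apart.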

How the data were processed

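RNA sequencing values from 3 control and 3 fludarabine-resistant HG3 libraries were used as deposited by the authors: 1 FPKM value per gene symbol and library, per the file headers, with a comma as the decimal mark. The tools named in the submitters' processing notes are DESeq2, HTSeq 0.6.1, Cufflinks 2.2.1 and TopHat2 2.0.4, and the build is hg19, without their roles. No counts were used here. Relative depth came from whole-fragment steps among values under 0.15 FPKM: 77.7% to 81.5% of ratios to control 17 were ratios of whole numbers up to 6 (tolerance 0.02, log2), and depth was 1 to 1.301.

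Genes with at least 1 FPKM in at least 3 libraries were fitted as log2(FPKM + 1) by limma 3.58.1 under R 4.3.3 (trended eBayes, two-sided), adjusted by Benjamini-Hochberg over all 11307 genes. The script was tested on simulated data. The pseudocount understates differences of low genes. Nothing given says that pools were selected separately, so p-values reflect only variation among these 6 libraries, perhaps technical. Pools are described as pairs; same-numbered libraries' deviations from group means correlated at 0.15, 0.09 and -0.02 in pools 17, 18 and 28, and the block for pool was an alternative. Members and gene lists were chosen with earlier results of these data known. Per class, up to 3 members of smallest p with 1 sign in all pools, the highest positive member and ARID5B are given in full, and 2 other chromatin genes per class (some genes are not reported here); NSD1, SETD1A, SETD1B, MLL2, MLL5, EED, SUZ12, WHSC1, HDAC1, ARID2, SMARCB1, GATAD2A, CHD4, CHD7, BRD2 and the other SWI/SNF genes were added after their values were seen. Lengths and GC content came from GENCODE v29, matched by symbol for 91.8% of tested genes and 97.9% of members. Trends were removed by loess of span 0.5. Alternatives were other pseudocounts, filters, scalings, array weights, the pool block, trend removal, and leaving out libraries and pools.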

Additional observations from a re-analysis of the deposited data

How the results depend on the processing

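All 20 members lower without overlap kept a negative sign in every one of the alternatives that could be run for them, up to 21, as did 29 of the 47 tested members their own sign. With the pool number as a replicate block, 0 members and 3 of all genes passed, so the block changed no call of a member. In that fit 17 members were lower at an unadjusted p under 0.05, where 6.9% of all genes were. The number of all genes passing limma's threshold, 4 in the reported fit, was 2 after removing both the GC and length trends or either alone (single trends were chosen after seeing the data), 0 after removing both with the replicate block, and 301 with array weights. The count ran from 3 to 18 when a library or pool was left out, with 8 without resistant 17, 13 without resistant 18 and 18 without pool 18. Members passing ran from 0 to 1 there, and 8 members and 3 other chromatin genes passed with array weights. At an unadjusted p under 0.05 (limma), 18 of 47 members were lower, where 7.1% of all genes were. With a mean of at least 5 FPKM this was 5 of 32, where 6% of all genes were lower. When a library or pool was left out, 9 to 21 members were lower. The 9 came without pool 28, where 3% of all genes were lower, and the 21 without resistant 18, where 12.9% were. The members' median log2 difference of -0.25 was -0.0807 with a mean of at least 5 FPKM. It was -0.0448 after removing GC and length trends (with or without the block), and -0.0915 with the length trend alone removed. Leaving out a library or pool gave -0.3575 (without pool 18) to -0.1566 (without resistant 17). The cause of these shifts was not tested, beyond the smaller gene set of the stricter filter. Values under 1 FPKM, as in SETD1B, KDM5B, HDAC7, ARID5B and the resistant libraries of SETD1A and KDM6B, rest on few fragments at a depth that is not known.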
